A study of Homo sapiens with 18 samples.

Results

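The comparison set L428-PAX5+MAT, a drug-treated Hodgkin lymphoma line carrying an inducible PAX5, against the mean of the Raji and Namalwa group means. It compared 9 of the 18 arrays in the series, 3 per group, over all 18417 genes that had a probe set with a single gene symbol. All 18 arrays entered the fit and set the spread behind each test. L428-PAX5+MAT cells are L428-PAX5 cells kept in medium with 25 mM HEPES. They received 0.25 nM mifepristone, which induces PAX5 in this derivative, for 2 days before the next agent, within a treatment time of 5 days. They then received 5-aza-2'-deoxycytidine (5-aza-dC), a DNA methyltransferase inhibitor, at 3 µM over 3 days. In the final 24 hours trichostatin A (TSA), which inhibits histone deacetylases, was added at 640 nM. The titles of these 3 samples write L425-PAX5+MAT, whereas the cell line field gives L428-PAX5. The reference lines, Raji and Namalwa, come from Burkitt lymphoma and received none of these agents. The other groups of 3 included L428-PAX5+M and L428+M, given mifepristone as the only agent with a treatment time of 5 days. The last group, L428+MAT, was the parental line given all 3 agents. L428-PAX5+M was also kept with 25 mM HEPES, and the parental groups, L428+M and L428+MAT, were kept without it. In comparisons of PAX5 groups with parental groups, HEPES therefore cannot be told apart from the PAX5 line. L428 derives from classical Hodgkin lymphoma. Cell line, PAX5 transgene, HEPES, mifepristone and the drugs all differed between L428-PAX5+MAT and the Burkitt lines, so their parts in any difference cannot be told apart. The labels do not say whether replicates were separate cultures. The p-values therefore describe scatter within the groups of all 18 arrays, part or all of which may be technical.

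PAX5 is the transcription factor that commits lymphoid progenitors to the B lineage. It activates genes of the B-cell receptor and its coreceptors and represses genes of other lineages and of plasma cells. Burkitt lymphoma cells resemble germinal-centre B cells, carry MYC translocations and keep the B-cell program. Hodgkin cells also come from B cells but have lost most of that program and have active NF-kB and JAK-STAT signalling. Methylation of CpG sites and removal of histone acetyl groups are both tied to silent genes, and 5-aza-dC and TSA act against them.

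Values are the deposited log2 intensities, so a difference of 1 is a 2-fold change, and every difference is L428-PAX5+MAT minus the Burkitt mean unless another pair is named. A gene passed when its Benjamini-Hochberg adjusted p in limma was under 0.05, adjusted over all 18417 genes. Medians of the 18 arrays lay between 6.52 and 6.70. Correlations between replicates of the 3 compared groups lay between 0.9628, for L428-PAX5+MAT replicates 2 and 3, and 0.9961, for Raji replicates 1 and 2. Background correction compresses differences between dim genes, and the files give no detection calls.

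L428-PAX5+MAT differed from the Burkitt lines over a large share of the genes measured, in both directions. Of 18417 genes, 9123 passed (49.5%), with 4247 higher (23.1%) and 4876 lower (26.5%) in L428-PAX5+MAT. At least 2-fold differences that passed numbered 1949 higher and 1894 lower. The median difference over all genes was -0.08, and the median absolute difference was 0.37. The values of the 3 L428-PAX5+MAT arrays and the 6 Burkitt arrays did not overlap for 6702 of the passing genes. Overlap was counted only among genes the test had already called, so this number is no separate support. Tested against each line alone, 3072 genes (16.7%) were above both lines and 3189 (17.3%) were below both.

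**Figure D1:**
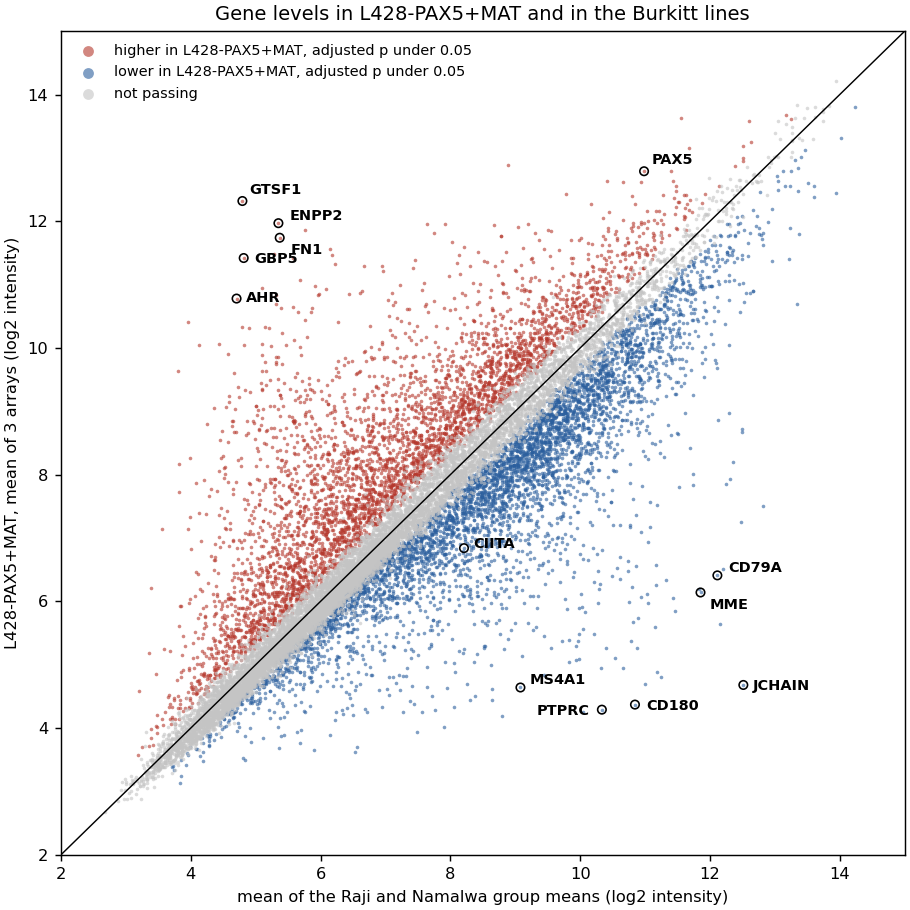
Mean log2 intensity of every gene in L428-PAX5+MAT (vertical, 3 arrays) against the mean of the Raji and Namalwa group means (horizontal), with genes that passed higher in red, lower in blue and the rest in grey. GTSF1, ENPP2, GBP5, FN1 and AHR stand far above the line of equal levels, JCHAIN, CD79A, MME, CD180, PTPRC and MS4A1 far below it, and PAX5 lies above it by 1.80.

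PAX5 itself was higher in L428-PAX5+MAT than in either Burkitt line. Its level was 12.84, 12.85 and 12.67 in L428-PAX5+MAT, against 10.97, 10.94 and 10.77 in Raji and 11.31, 11.07 and 10.85 in Namalwa. The groups did not overlap, and the difference was 1.80 (SE 0.26, adjusted p = 1.15e-05, limma), or 3.49-fold. PAX5 averaged 12.73 in L428-PAX5+M, 7.17 in L428+MAT and 7.49 in L428+M, where replicate 1 stood at 8.64 and the other replicates at 7.14 and 6.70. A probe set can read transgene and endogenous transcripts together, and these were not separated here.

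Genes that carry the B-cell receptor signal were lower in L428-PAX5+MAT, although PAX5 was higher. CD79A, the signalling chain of the B-cell receptor and a gene that PAX5 is known to activate, was at 6.30, 6.53 and 6.39 in L428-PAX5+MAT, against 12.45, 12.38 and 12.07 in Raji and 12.14, 12.01 and 11.64 in Namalwa. Every L428-PAX5+MAT array was far below every Burkitt array, with a difference of -5.71 (SE 0.14, adjusted p = 5.15e-16, limma). CD79B, the other signalling chain, differed by -4.30, and SYK, the kinase recruited to the phosphorylated chains, by -4.63. BLNK, the adaptor downstream of SYK, was at 5.36, 5.56 and 5.52 in L428-PAX5+MAT, against 9.76 to 9.98 in Raji and 9.99 to 10.24 in Namalwa. Of 22 measured members of the receptor signalling list, 16 were lower, 2 were higher and 4 did not pass, with a median difference of -2.07. The background shares of all genes were 26.5% lower and 23.1% higher, for this and every later list of L428-PAX5+MAT against the Burkitt mean. The 2 higher members, PLCG2 (0.36) and SH3BP5 (0.33), were close to the threshold: the count was 0 or 1 without any single array other than L428-PAX5+M replicate 1. It was 0 without Namalwa replicate 1 or 3, Raji replicate 3, or L428-PAX5+MAT replicate 1 or 2. PLCG2 also had another probe set that went the other way, at -1.96. SH3BP5 did not pass with only the 9 compared arrays in the fit (adjusted p = 0.0956, limma). In L428+M against the same Burkitt mean, 17 of the 22 list members were lower and 2 higher, at a median of -0.96. Over all genes, 18.7% were lower and 16.7% higher there. CD79A and BLNK averaged 6.13 and 5.37 in L428+M.

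Surface antigens of B cells were lower as a group, though not all of them against both Burkitt lines. CD22, a coreceptor that dampens the B-cell receptor, was at 6.18, 6.25 and 5.72 in L428-PAX5+MAT, against 12.03, 11.92 and 11.83 in Raji and 11.05, 10.91 and 10.80 in Namalwa. MS4A1, which encodes CD20, was at 4.65, 4.56 and 4.71 in L428-PAX5+MAT, against 11.82, 11.88 and 12.38 in Raji and 5.78, 5.90 and 6.72 in Namalwa. Both genes were below both lines, but Namalwa itself had little MS4A1 signal, so its difference of -4.44 from the mean rested mostly on Raji. Of 25 measured surface antigens and coreceptors, 20 were lower, 2 were higher and 3 did not pass, with a median of -1.70. Below both lines were 13 of the 25, and 1 was above both, where 17.3% and 16.7% of all genes were. In L428+M, 18 of the 25 were lower than the Burkitt mean and 3 higher, at a median of -1.44. That comparison had 18.7% of all genes lower and 16.7% higher. CD180, a receptor of the Toll-like family on B cells, differed by -6.47 and SLAMF6, a receptor of the SLAM family, by -5.71. CD83, an activation marker, was higher by 1.32 (adjusted p = 1.06e-08, limma), and CD24 was higher than the mean by 2.21, above Raji and below Namalwa.

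Most transcription factors that sustain the B-cell program were also lower. POU2AF1, the coactivator of octamer-binding factors, was at 6.08, 6.51 and 6.20 in L428-PAX5+MAT, against 11.35, 11.61 and 11.13 in Raji and 11.10, 11.06 and 10.82 in Namalwa. The difference was -4.92 (SE 0.15, adjusted p = 4.55e-15, limma). TCF3, which encodes the E2A proteins that act with PAX5 early in the lineage, differed by -2.26. ETS1 differed by -2.32, POU2F2 by -1.80 and SPIB by -1.73. Of 21 measured factors, 16 were lower, 3 were higher and 2 did not pass, with a median of -1.30. The higher ones were PAX5, IRF4 (2.65) and SOX4 (0.53). IRF8, a factor of germinal-centre B cells, was at 11.17, 11.28 and 10.40 in L428-PAX5+MAT, against 11.17, 11.30 and 11.04 in Raji and 11.52, 11.38 and 11.18 in Namalwa. Its arrays overlapped and its difference of -0.32 did not pass (adjusted p = 0.292, limma). IRF8 was 2.03 higher than in L428+M, where it averaged 8.92. Against the Burkitt mean, L428+M had 13 of the 21 factors lower and 3 higher, at a median of -1.02. The shares of all genes there were 18.7% lower and 16.7% higher.

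The germinal-centre list, which Burkitt lymphoma cells are known to express, was lower in nearly all members. Of 20 measured genes, 18 were lower, 1 was higher and 1 did not pass, with a median of -2.32. In L428+M, 16 of the 20 were lower than the Burkitt mean and none was higher, at a median of -2.39. That comparison had 18.7% of all genes lower and 16.7% higher. BCL6, the master regulator of germinal-centre B cells, was at 9.58, 10.11 and 9.61 in L428-PAX5+MAT, against 12.25, 12.30 and 12.37 in Raji and 11.95, 11.86 and 11.87 in Namalwa. The difference of BCL6 was -2.33 (SE 0.14, adjusted p = 8.56e-11, limma). MME, which encodes CD10, differed by -5.71 and STAP1, an adaptor protein, by -5.80. MYBL1, the 1 higher member at 0.34 (adjusted p = 0.0294, limma), did not pass without Namalwa replicate 1 or 2, Raji replicate 1 or 2, or L428-PAX5+MAT replicate 1 or 3. Its adjusted p then lay between 0.0537 and 0.118. All 5 measured immunoglobulin components were lower, at a median of -1.74, and JCHAIN, which joins immunoglobulin M and A into polymers, had the largest negative difference among all named genes. JCHAIN was at 4.76, 4.72 and 4.54 in L428-PAX5+MAT, against 12.32, 12.36 and 12.49 in Raji and 12.39, 12.70 and 12.84 in Namalwa. Its difference was -7.84 (SE 0.16, adjusted p = 3.59e-17, limma). In bulk RNA of this kind, fewer cells that express a gene and less RNA per cell cannot be told apart.

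**Figure D2:**
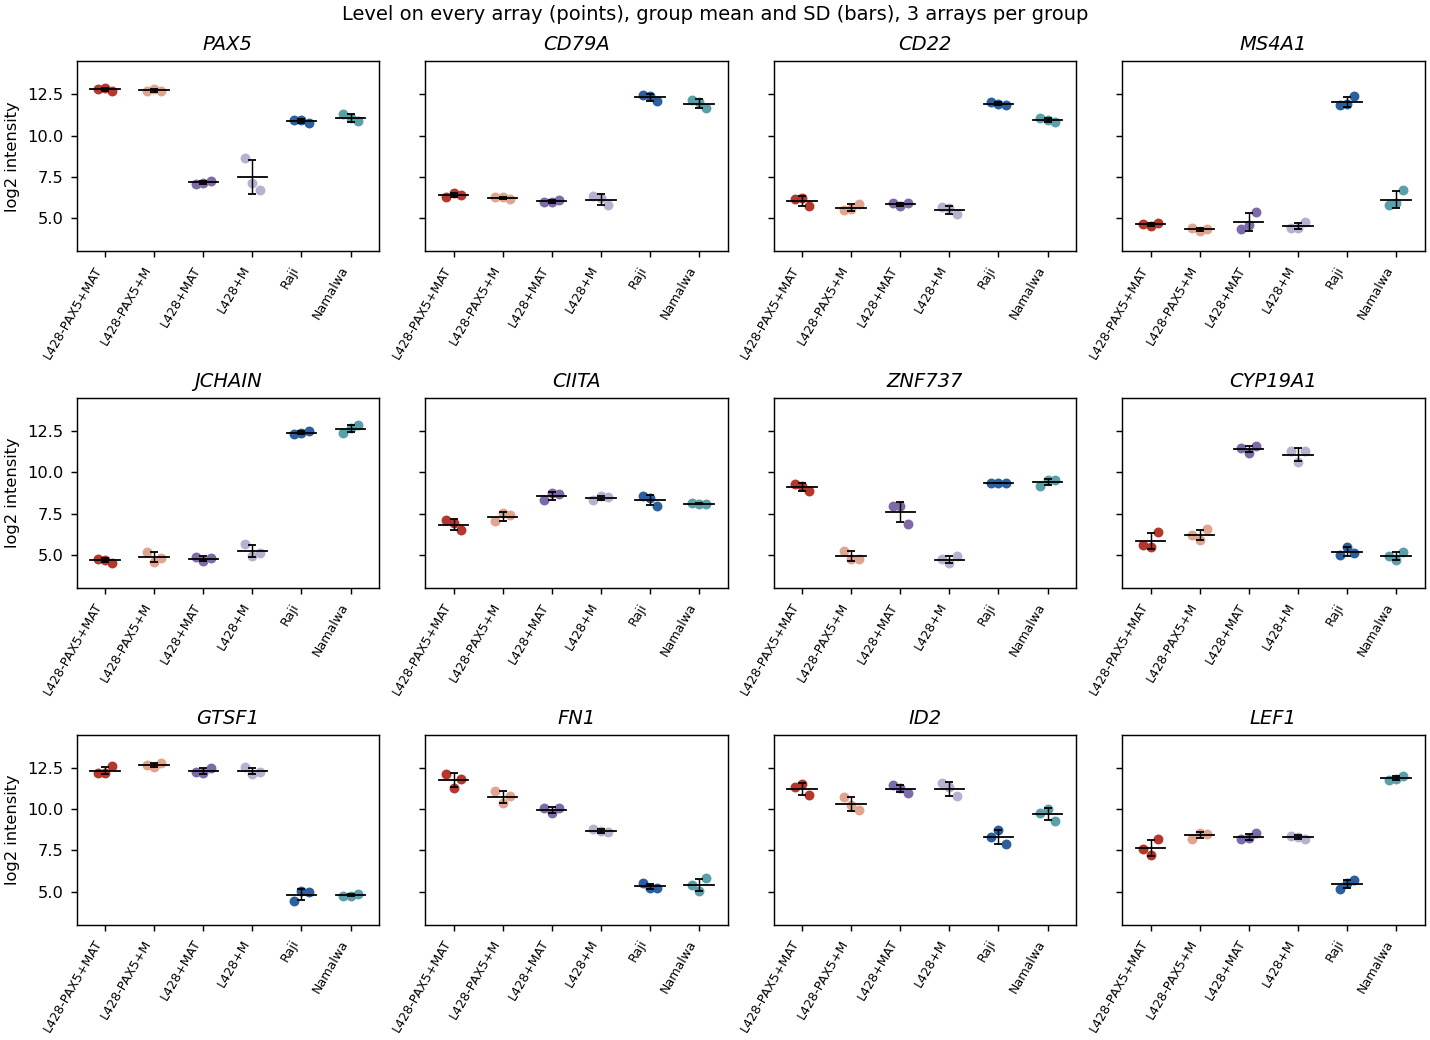
Log2 intensity of 12 genes on all 18 arrays, as points by group with the mean and SD of 3 arrays as black bars. L428-PAX5+MAT is leftmost and the Burkitt lines are rightmost. CD79A, CD22 and JCHAIN stay low in all L428 groups, ZNF737 is near the Burkitt level in L428-PAX5+MAT, and CYP19A1 is low in both PAX5 groups.

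Genes reported as direct PAX5 targets did not move as one. Among 16 measured genes reported as activated by PAX5, 11 were lower than the Burkitt mean, 2 were higher and 3 did not pass, at a median of -1.44. The higher genes were NEDD9, an adhesion scaffold, at 1.33, and PRKD2, a protein kinase, at 0.92. NEDD9 was at 8.19, 8.89 and 7.65 in L428-PAX5+MAT, against 7.48, 7.58 and 7.64 in Raji and 6.27, 6.26 and 6.26 in Namalwa. The arrays did not overlap, though the lowest L428-PAX5+MAT value lay just above the highest Raji value. Among 16 measured genes reported as repressed by PAX5, 7 were higher, 6 were lower and 3 did not pass, at a median of -0.05. CSF1R, the receptor of a myeloid growth factor and a gene that PAX5 is known to repress, was at 9.85, 10.28 and 9.39 in L428-PAX5+MAT, against 6.26, 6.27 and 6.30 in Raji and 6.67, 6.41 and 6.33 in Namalwa. It was higher by 3.47 (SE 0.15, adjusted p = 1.16e-12, limma). CSF1R averaged 9.13 in L428-PAX5+M, 6.72 in L428+MAT and 6.45 in L428+M. GATA3, a T-cell factor, was higher by 4.19 and averaged 9.89 in L428-PAX5+MAT and 11.43 in L428+M.

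Plasma-cell genes were split. PRDM1, which ends the B-cell program in plasma cells, was at 9.43, 9.24 and 9.49 in L428-PAX5+MAT, against 7.26, 7.21 and 7.32 in Raji and 8.40, 8.43 and 8.19 in Namalwa. PRDM1 was higher by 1.59 (SE 0.14, adjusted p = 1.74e-08, limma), while XBP1, the factor of secretory capacity, differed by -0.83 (adjusted p = 1.50e-04, limma). XBP1 did not pass against Raji alone, where its difference was -0.37. CD38 differed by -5.69 and MZB1, a chaperone of immunoglobulin assembly, by -3.30. Of 19 measured plasma-cell regulators and secretory genes, 5 were higher and 8 were lower, at a median of -0.29. The higher genes were IRF4, ELL2, PRDM1, SEL1L and SEC11C.

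Antigen presentation genes were lower in L428-PAX5+MAT. CIITA, the coactivator that switches on HLA class II genes, was at 7.10, 6.93 and 6.49 in L428-PAX5+MAT, against 8.55, 8.45 and 7.97 in Raji and 8.15, 8.06 and 8.09 in Namalwa. Its difference was -1.37 (SE 0.16, adjusted p = 6.52e-07, limma). CIITA averaged 8.45 in L428+M, and L428-PAX5+MAT was 1.62 below that on the log2 scale. Of 14 measured members of the class II list, 12 were lower, none was higher, and HLA-DPA1 (0.07) and RFXANK (0.07) did not pass. The list's median was -1.41, and in L428+M the median against the same Burkitt mean was 0.07. Against L428+M, 11 of the 14 were lower and none was higher, where 19.6% of all genes were lower. HLA-DQA1, an alpha chain of class II, was at 5.38, 5.95 and 5.64 in L428-PAX5+MAT, against 9.77, 9.85 and 9.24 in Raji and 7.35, 7.72 and 8.30 in Namalwa. HLA genes vary between people and resemble each other, so probe binding can differ between lines, which was not tested here. Of 12 measured class I and processing genes, 8 were lower, 1 was higher and 3 did not pass, at a median of -1.02. ERAP1, which trims peptides in the endoplasmic reticulum, differed by -2.14, and the higher gene was CALR, a chaperone, at 0.57.

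Genes known from Hodgkin cells were higher than in the Burkitt lines. Of 34 measured Hodgkin-cell genes, 23 were higher and 5 were lower, at a median of 1.91. MSC, a repressor of E2A activity in Hodgkin cells, was at 9.48, 8.86 and 9.72 in L428-PAX5+MAT, against 5.58, 5.33 and 5.58 in Raji and 5.57, 5.64 and 5.48 in Namalwa. The difference was 3.82 (SE 0.20, adjusted p = 1.51e-11, limma). ID2, an inhibitor of E2A, was at 11.35, 11.50 and 10.83 in L428-PAX5+MAT, against 8.32, 8.72 and 7.91 in Raji and 9.76, 10.00 and 9.28 in Namalwa, and was higher by 2.23. IL13RA1, a subunit of the interleukin 13 receptor, was higher by 5.31 and CCL1, a chemokine, by 4.87. The lower members were IL2RA, ROR1, CD70, CSF2RB and CCL22. IL2RA, an interleukin 2 receptor subunit, was lower than Namalwa by 4.04 on the log2 scale, but did not pass against Raji (-0.35, adjusted p = 0.0924, limma). Against L428+M, 21 of the 34 were lower and 5 higher, where 19.6% of all genes were lower and 17.9% higher. TNFRSF8, which encodes the Hodgkin antigen CD30, was at 8.17, 7.93 and 7.84 in L428-PAX5+MAT, against 7.67, 7.53 and 7.85 in Raji and 7.70, 7.54 and 7.35 in Namalwa. Its arrays overlapped, and the difference of 0.37 did not pass (adjusted p = 0.0938, limma), though it did without L428+M replicate 3 (adjusted p = 0.0336), with a replicate block (0.0312) and with quantile normalization (0.0431). TNFRSF8 also passed with only the 9 compared arrays in the fit (adjusted p = 0.0354, limma). TNFRSF8 averaged 9.88 in L428+M, 1.90 above L428-PAX5+MAT.

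In the signalling lists, more members were higher than lower, though JAK-STAT was nearly even. Over all genes, 23.1% were higher and 26.5% lower. Of 30 measured NF-kB subunits and targets, 19 were higher and 5 lower, at a median of 1.28. CCND2, which encodes a D-type cyclin, was at 11.08, 10.65 and 11.52 in L428-PAX5+MAT, against 5.71, 5.77 and 5.65 in Raji and 5.78, 5.48 and 5.72 in Namalwa, a 42.2-fold difference. CXCL10, a chemokine, was 22.8-fold higher. The lower members were NFKB1 (-1.37), TNIP1 (-1.39), NFKBIE (-1.06), RELB (-0.67) and LTB (-0.65). Of 13 AP-1 and BATF factors, 6 were higher, among them JUN by 3.59 and BATF3 by 2.57. The single lower factor, BATF2 at -0.42, was at -0.18 (adjusted p = 0.243, limma) without L428-PAX5+MAT replicate 3. BATF2 did not pass with only the 9 compared arrays in the fit (adjusted p = 0.0548, limma). JAK-STAT members were split, with 10 of 22 higher and 8 lower: JAK2 was higher by 2.68 and STAT4 by 3.81, whereas IL7R differed by -3.06 and PIM2, a kinase, by -2.68. Of 36 measured interferon response genes, 18 were higher and 8 lower, at a median of 0.48. The balance depended on the line: against Raji alone 24 were higher and 4 lower, and against Namalwa alone 15 were higher and 14 lower. HERC5, an enzyme that attaches ISG15 to proteins, was at 9.25, 9.36 and 9.39 in L428-PAX5+MAT, against 5.01, 5.61 and 5.13 in Raji and 5.02, 4.85 and 4.98 in Namalwa. OAS2, a sensor of double-stranded RNA, went the other way at -3.35. Against L428+M, 19 of the 36 were lower and 5 higher, where 19.6% of all genes were lower and 17.9% higher. The higher count was 2 without L428-PAX5+MAT replicate 1.

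**Figure D3:**
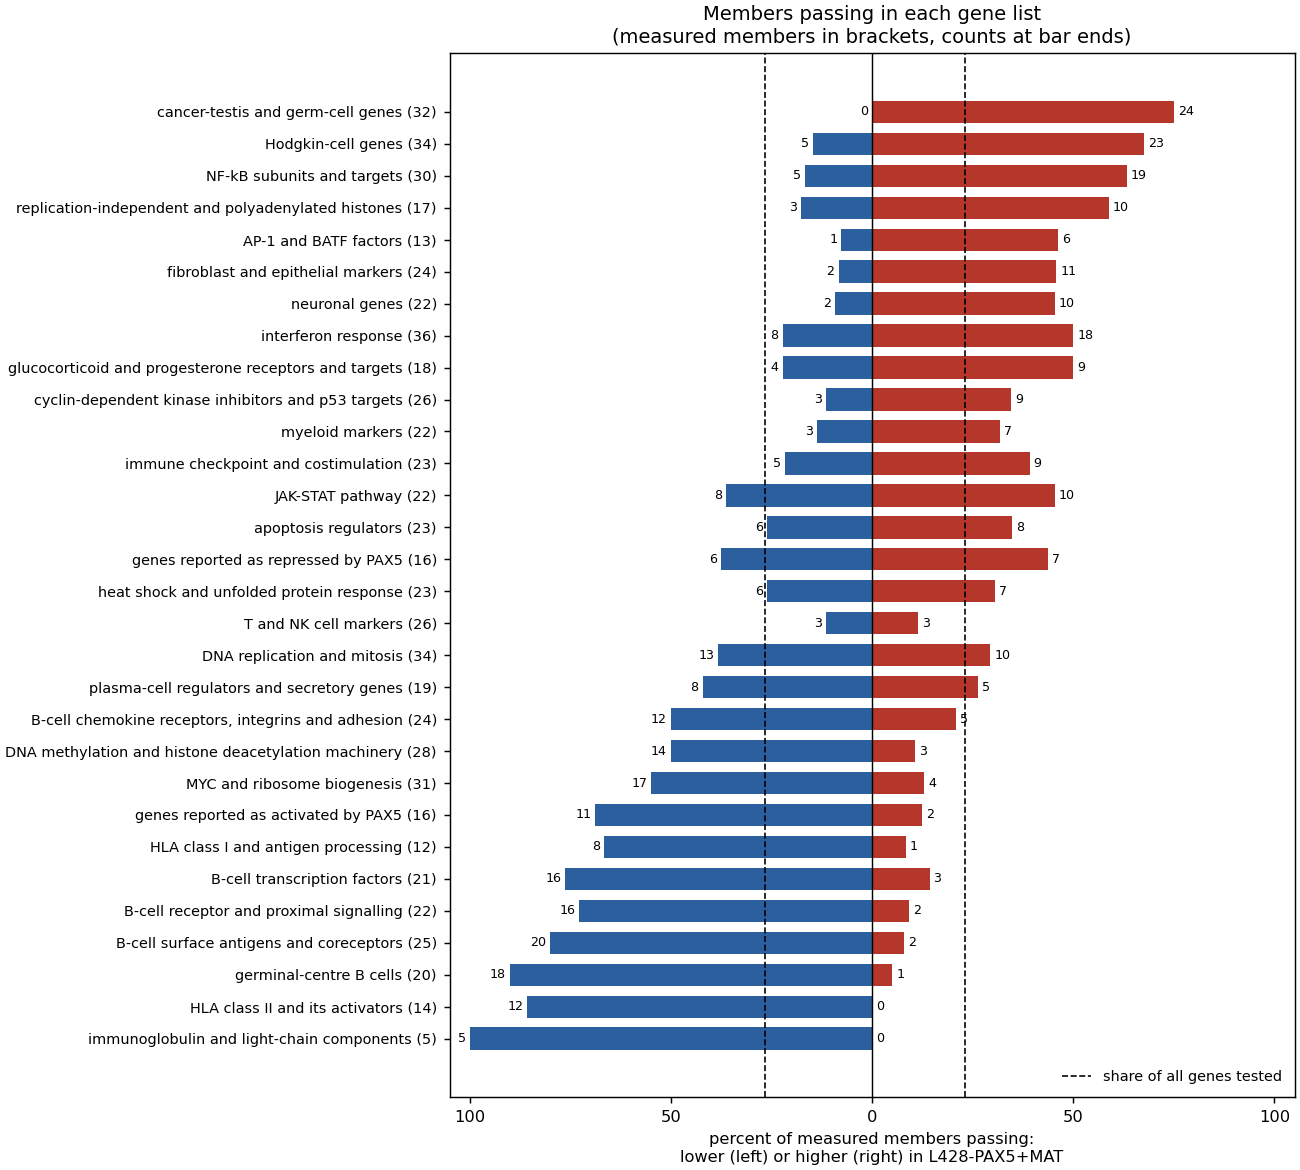
Percent of measured members of each of 30 gene lists that passed lower (blue, left) or higher (red, right) in L428-PAX5+MAT than in the Burkitt mean, with counts at the bar ends and the shares of all genes as dashed lines (26.5% lower, 23.1% higher). B-cell and HLA lists lie at the bottom with mostly lower members, and cancer-testis, Hodgkin-cell and NF-kB lists at the top with mostly higher members.

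The largest positive differences held genes from several fields. GTSF1, a germline gene that acts with small RNAs on transposons, was at 12.17, 12.20 and 12.59 in L428-PAX5+MAT, against 4.42, 5.02 and 4.98 in Raji and 4.73, 4.76 and 4.84 in Namalwa. The groups were far apart, with a difference of 7.53 (SE 0.14, adjusted p = 2.70e-17, limma). GTSF1 was as high in L428+M, at a mean of 12.30. UTS2B, which encodes a peptide related to urotensin, was at 10.05, 10.99 and 10.20 in L428-PAX5+MAT, against 3.88, 3.86 and 4.40 in Raji and 3.67, 3.71 and 4.23 in Namalwa. UTS2B averaged 4.01 in L428-PAX5+M, 6.14 in L428+MAT and 4.04 in L428+M. Among the 10 highest differences, GTSF1, AHR, TSPYL5 and LINC01554 were already high in L428+M, and UTS2B and RFPL4A were near the Burkitt level there. ENPP2, FN1, RBM11 and GBP5 lay between, at 8.61, 8.68, 7.79 and 9.62 in L428+M. AHR, the receptor for dioxin-like ligands, was higher by 6.08 than the Burkitt mean and 0.63 below L428+M. ENPP2, the enzyme autotaxin, was higher by 6.62, GBP5, an interferon-induced GTPase, by 6.60, and FN1, fibronectin, by 6.37. FN1 averaged 10.74 in L428-PAX5+M, 9.96 in L428+MAT and 8.68 in L428+M, against 11.74 in L428-PAX5+MAT.

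Cancer-testis and germ-cell genes, which are known to be methylated in most somatic cells, were higher in 24 of 32 measured members and lower in none. Their median was 1.20, and 21 were above both lines. The dim-gene filter drops genes whose mean lies below the overall median in every group. With dim genes left out, 12 members were counted as higher. RFPL4A was at 11.64, 12.17 and 10.63 in L428-PAX5+MAT, against 5.16, 5.12 and 5.46 in Raji and 5.04, 5.12 and 5.76 in Namalwa. TKTL1, a transketolase-like gene, was at 11.23, 10.48 and 9.99 in L428-PAX5+MAT, against 5.96, 5.90 and 6.05 in Raji and 5.76, 5.71 and 5.79 in Namalwa. TKTL1 averaged 11.30 in L428+MAT, against 5.73 in L428-PAX5+M and 6.24 in L428+M. In L428+M, 4 of the 32 were higher than the Burkitt mean, where 16.7% of all genes were higher. Against L428+M, 20 were higher in L428-PAX5+MAT, where 17.9% of all genes were higher. With dim genes left out, these counts were 2 and 10. Members of the SSX and MAGE families have near-identical copies that one probe set can share.

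In a list of DNA methylation and histone deacetylation machinery, which holds the enzymes the drugs inhibit and also Polycomb genes, 14 of 28 were lower and 3 higher, at a median of -0.30. HDAC7 differed by -1.39 and HDAC8 by -1.27, while HDAC11 was higher by 1.20, EED by 0.97 and EZH2 by 0.56. Histone genes with polyadenylated or replication-independent transcripts were higher in 10 of 17, with H2AJ at 3.03 and H2BC12 at 2.65, and lower in 3, H2BC4 at -1.06, MACROH2A1 at -0.82 and H4C3 at -0.46. H2BC12 was at 12.20, 12.72 and 12.37 in L428-PAX5+MAT, against 9.24, 9.81 and 9.76 in Raji and 9.52, 10.23 and 10.11 in Namalwa. Near-identical histone genes could share probes.

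Replication genes differed in both directions, and genes of the MYC list were lower more often than higher. Of 34 replication and mitosis genes, 10 were higher and 13 lower, at a median of -0.17. Over all genes, 23.1% were higher and 26.5% lower. TYMS, thymidylate synthase, was lower at 9.55, 9.17 and 9.67 in L428-PAX5+MAT, against 11.53, 11.55 and 11.31 in Raji and 11.58, 11.68 and 11.42 in Namalwa. CDC20, an activator of the anaphase-promoting complex, was higher by 1.13. MYC, which Burkitt translocations drive, was at 10.58, 10.23 and 10.50 in L428-PAX5+MAT, against 11.41, 11.50 and 11.91 in Raji and 11.84, 11.85 and 11.87 in Namalwa, a difference of -1.30 (SE 0.13, adjusted p = 7.73e-08, limma). Of 31 genes of MYC and ribosome biogenesis, 17 were lower and 4 higher, at a median of -0.38. The higher genes were MXD1, a partner of MAX that opposes MYC, at 2.47, RRS1 at 0.66, MAX at 0.36 and NOP58 at 0.27, and the list had 2 higher members without L428-PAX5+MAT replicate 1. Of 26 cyclin-dependent kinase inhibitors and p53 targets, 9 were higher and 3, BAX, SESN1 and DDB2, were lower. The lower count was 1 with quantile normalization, 5 with array medians subtracted or a replicate block and 6 with array weights, and SESN1 did not pass with quantile normalization (adjusted p = 0.066, limma). CDKN2B, the inhibitor p15, was higher by 1.75, and CDKN1A, the inhibitor p21, did not pass at -0.24 (adjusted p = 0.384, limma). CDKN1A was 1.27 above L428+M. Apoptosis regulators were higher in 8 and lower in 6 of 23: BCL2 differed by -2.08 and BID by -2.92, and CASP10 was higher by 1.72. Heat shock and unfolded protein response genes were higher in 7 and lower in 6 of 23, with DDIT3 at 2.15 and HSPB1 at 3.07. In the apoptosis and heat shock lists, 60.9% and 56.5% of members passed, not far from the 49.5% of all genes.

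Adhesion genes were lower more often than higher. Of 24 chemokine receptor and adhesion genes, 12 were lower and 5 higher, at a median of -0.59. P2RY8, a receptor that confines germinal-centre B cells, differed by -5.37 and CXCR4 by -2.04. CCR7, the receptor that guides cells into lymph nodes, was at 11.53, 10.86 and 11.69 in L428-PAX5+MAT, against 10.60, 10.64 and 10.71 in Raji and 6.40, 6.50 and 6.57 in Namalwa. The higher genes were CCR7, CD44, S1PR1, CD58 and ITGAV, and the list had 3 higher members without L428-PAX5+MAT replicate 1. Against L428+M, 16 of the 24 were lower and 1 was higher, where 19.6% of all genes were lower and 17.9% higher. Of 23 checkpoint and costimulation genes, 9 were higher and 5 were lower. CD274, which encodes the checkpoint ligand PD-L1, was at 9.24, 8.33 and 9.56 in L428-PAX5+MAT, against 5.93, 5.82 and 5.89 in Raji and 4.82, 4.82 and 4.75 in Namalwa. It was 13.1-fold higher. The lower genes were ICOSLG, CD70, LGALS9, TNFRSF14 and VSIR. Of 18 glucocorticoid and progesterone receptor genes and targets, which mifepristone could touch as a receptor antagonist, 9 were higher and 4, CXCR4, DDIT4, TSC22D3 and TSC22D1, were lower. NR3C1, the glucocorticoid receptor, was at 9.42, 7.73 and 9.74 in L428-PAX5+MAT, against 9.88, 10.00 and 9.97 in Raji and 9.28, 9.37 and 9.25 in Namalwa. Replicate 2 stood apart, and the difference of -0.66 did not pass (adjusted p = 0.0568, limma). NR3C1 passed with a replicate block (adjusted p = 0.0296, limma), with array medians subtracted (0.0332) and with dim genes left out (0.0466). It also passed at -0.89 without L428-PAX5+MAT replicate 1 and at -1.05 without replicate 3, omissions that give the low replicate 2 more weight. Replicates 1 and 3 lay within the range of the Burkitt arrays, so the difference of NR3C1 rested mostly on replicate 2.

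Markers of other cell types were checked against the label. The mean level of the 5 measured B-cell markers lay between 7.19 and 7.35 on the L428-PAX5+MAT arrays, against 11.68 to 11.70 in Raji and 10.07 to 10.12 in Namalwa. Of the 5, only PAX5 was higher in L428-PAX5+MAT, and 4 were lower. The PAX5 level of 12.79 is part of that mean and raises it, since 4 of the 5 markers lay below the median of all values, 6.62. The 5 Hodgkin markers averaged 9.91 to 10.10, against 7.24 to 7.44 in Raji and 7.42 to 7.70 in Namalwa, and 4 were higher. None of the 7 T and NK cell markers passed in either direction, at mean levels of 5.56 to 5.64, against 5.72 to 5.77 in Raji and 5.59 to 5.67 in Namalwa. Of the 5 measured myeloid markers, 3 were higher (CD14, ITGAM and CSF1R) and MPO was lower. The fibroblast and epithelial set was higher in 3 of 6 markers, COL1A1, KRT18 and CDH1. In the longer lists, 3 of 26 T and NK genes were higher (GATA3, SH2D1B and BCL11B) and 3 were lower (LCK, CD247 and LAT). The lower count was 5 without Raji replicate 3 or with a replicate block, 6 with array medians subtracted, 9 with quantile normalization and 10 with array weights. Of 22 myeloid genes 7 were higher, or 4 without L428-PAX5+MAT replicate 2, and AIF1, FCER1G and MPO were lower. The lower count was 5 with array medians subtracted, 6 with quantile normalization or a replicate block, 7 with array weights and 0 with dim genes left out, and FCER1G did not pass against Raji alone (-0.20, adjusted p = 0.369, limma). Of 24 fibroblast and epithelial genes 11 were higher, and the 2 lower ones, ZEB1 and ZEB2, did not pass without L428-PAX5+MAT replicate 2 (-0.38 and -0.28). Of 22 neuronal genes 10 were higher, MAP2 by 4.20, and UCHL1 (-2.56) and REST (-0.74) were lower.

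The Burkitt lines themselves differed on 3545 genes (19.2%), so a mean of both can hide a split. L428-PAX5+MAT differed from Raji on 8588 genes (46.6%), 4072 higher (22.1%) and 4516 lower (24.5%). It differed from Namalwa on 8357 genes (45.4%), 3914 higher (21.3%) and 4443 lower (24.1%). In all, 324 genes passed in opposite directions, 231 above Raji and below Namalwa and 93 the reverse. LEF1, a factor of the Wnt pathway, was at 7.56, 7.25 and 8.18 in L428-PAX5+MAT, against 5.18, 5.50 and 5.68 in Raji and 11.75, 11.84 and 11.98 in Namalwa. L428-PAX5+MAT was 2.22 above Raji and differed from Namalwa by -4.19. AK4, an adenylate kinase, was the reverse, at 8.07, 7.47 and 8.63 in L428-PAX5+MAT, against 11.11, 11.29 and 11.24 in Raji and 5.13, 5.49 and 5.73 in Namalwa. AK4 did not pass against the mean, at -0.28, but did at -0.56 (adjusted p = 0.013, limma) without L428-PAX5+MAT replicate 3. SCML2, a Polycomb-group protein, differed from the mean by 0.02, while it was 2.45 above Raji and 2.41 below Namalwa.

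**Figure D4:**
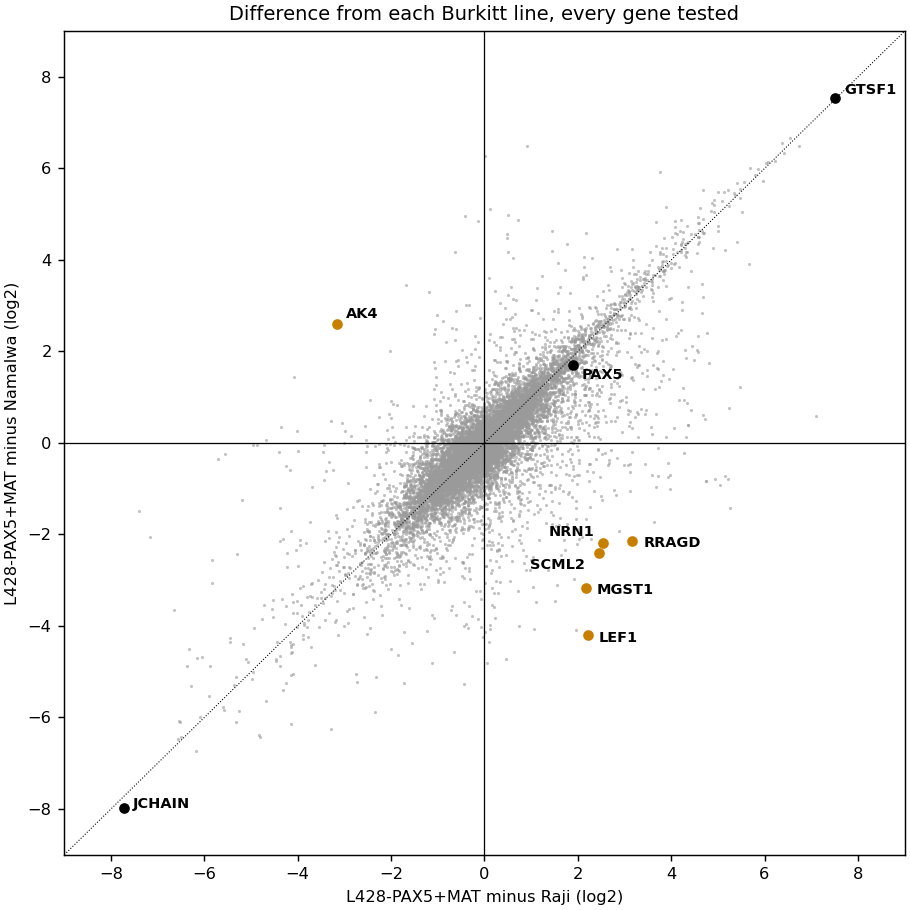
Log2 difference of L428-PAX5+MAT from Namalwa (vertical) against that from Raji (horizontal) for every gene tested, where the 2 axes share the L428-PAX5+MAT arrays. Black points mark GTSF1, PAX5 and JCHAIN, which differ the same way from both lines, and orange points mark the 6 named genes that lie between the lines, AK4 above Namalwa and below Raji and the other 5 the reverse.

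Set beside the other L428 groups, L428-PAX5+MAT had more genes that differed from the Burkitt mean. The same test gave 9123 genes in L428-PAX5+MAT, 6839 (37.1%) in L428-PAX5+M, 7755 (42.1%) in L428+MAT and 6526 (35.4%) in L428+M, and these comparisons share the Burkitt arrays. The median absolute difference was 0.37 in L428-PAX5+MAT, 0.26 in L428-PAX5+M, 0.31 in L428+MAT and 0.24 in L428+M. Replicates of L428-PAX5+MAT correlated at 0.9628 to 0.985, and those of the other L428 groups at 0.9813 to 0.9932. The fit used 1 spread per gene for all groups. Whether the larger scatter of L428-PAX5+MAT had a part in its count and median was not tested. Tested against each other, L428-PAX5+MAT and L428+M differed on 6899 genes (37.5%). Of these, 4492 (65.1%) lay farther from the Burkitt mean in L428-PAX5+MAT than in L428+M and 2407 (34.9%) nearer. A gene at the Burkitt level in L428+M can only move away from it, so this split is a description and no test of distance. Against L428-PAX5+M 6204 genes passed (33.7%), and against L428+MAT 5898 (32.0%).

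Genes on which L428+M already differed from both Burkitt lines by at least 2-fold were followed as 2 sets, chosen on the L428+M and Burkitt arrays. In the 781 Burkitt-high genes, the median distance from the Burkitt mean was -1.65 in L428-PAX5+MAT, -1.59 in L428-PAX5+M, -1.64 in L428+MAT and -1.78 in L428+M. Of these genes, 654 (83.7%) were still below both lines in L428-PAX5+MAT, 53 passed against neither line, and 146 (18.7%) passed above L428+M and lay at least 50% of the way from L428+M to the Burkitt mean. In the 1049 L428-high genes, the median distance was 1.56 in L428-PAX5+MAT, 1.82 in L428-PAX5+M, 2.25 in L428+MAT and 2.09 in L428+M. Of these, 783 (74.6%) were still above both lines, 122 passed against neither, and 333 (31.7%) passed below L428+M and lay at least 50% of the way from L428+M to the Burkitt mean. Because L428+M chose the sets, movement away from its extreme values is partly built in, and these counts are given as a description.

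**Figure D5:**
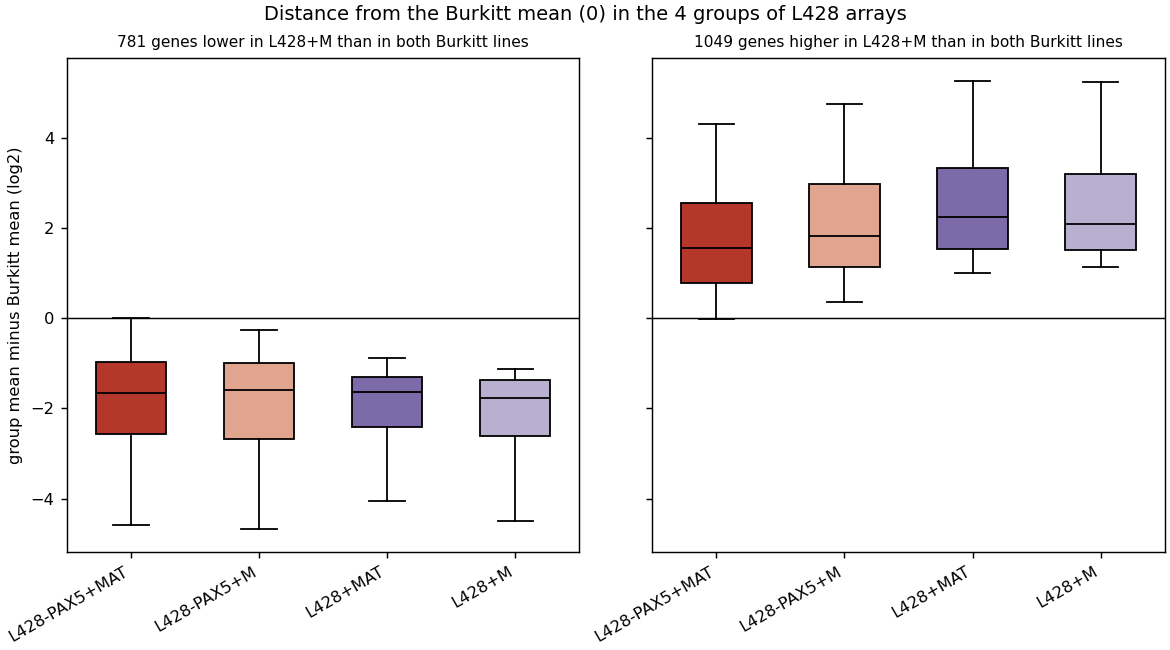
Distance of each L428 group's mean from the Burkitt mean (log2) for 781 genes lower and 1049 genes higher in L428+M than in both Burkitt lines, with median, quartiles and whiskers from the 5th to the 95th percentile over genes. The median of the first set stays between -1.78 and -1.59 in all 4 groups, and that of the second set is nearest to 0 in L428-PAX5+MAT, at 1.56.

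Of the Burkitt-high genes with the largest rises over L428+M, 3 are zinc finger genes. ZNF737 was at 9.30, 9.19 and 8.87 in L428-PAX5+MAT, against 9.33, 9.33 and 9.34 in Raji and 9.19, 9.55 and 9.52 in Namalwa. The groups overlapped and the difference of -0.26 did not pass (adjusted p = 0.313, limma), whereas L428+M averaged 4.73. ZNF737 averaged 7.60 in L428+MAT and 4.91 in L428-PAX5+M. ZNF486 was at 9.83, 10.59 and 9.34 in L428-PAX5+MAT, against 10.36, 10.35 and 9.86 in Raji and 9.97, 10.55 and 9.87 in Namalwa, with 5.77 in L428+M. Its difference of -0.24 did not pass, but reached -0.57 (adjusted p = 0.0388, limma) without L428-PAX5+MAT replicate 2. ZNF136 stood 3.25 above L428+M and FGD6, an exchange factor for small GTPases, 3.44 above it. HES1, a repressor downstream of Notch, was 3.13 above L428+M and was as high in L428-PAX5+M, at 9.34, as in L428-PAX5+MAT, at a mean of 9.56.

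The promoters of a pair of genes that stayed low and a pair that reached the Burkitt level are shown to compare their CpG sites, where DNA methylation is placed. Each is the 250 bases before the gene start in RefSeq, build GRCh38.p14, on the strand of the gene, with every CpG in capitals.
CD79A promoter, chr19:41877029-41877278, plus strand, 4 CpG: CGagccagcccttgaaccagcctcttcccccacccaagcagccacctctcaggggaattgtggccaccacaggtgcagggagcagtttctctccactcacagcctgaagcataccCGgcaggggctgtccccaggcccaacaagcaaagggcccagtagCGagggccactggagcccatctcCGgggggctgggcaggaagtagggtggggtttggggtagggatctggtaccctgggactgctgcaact
CD22 promoter, chr19:35328937-35329186, plus strand, 7 CpG: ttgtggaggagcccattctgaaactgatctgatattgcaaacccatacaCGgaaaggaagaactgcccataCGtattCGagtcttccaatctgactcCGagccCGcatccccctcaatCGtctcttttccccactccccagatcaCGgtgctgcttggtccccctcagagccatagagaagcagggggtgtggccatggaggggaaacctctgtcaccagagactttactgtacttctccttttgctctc
ZNF737 promoter, chr19:20565782-20566031, minus strand, 7 CpG: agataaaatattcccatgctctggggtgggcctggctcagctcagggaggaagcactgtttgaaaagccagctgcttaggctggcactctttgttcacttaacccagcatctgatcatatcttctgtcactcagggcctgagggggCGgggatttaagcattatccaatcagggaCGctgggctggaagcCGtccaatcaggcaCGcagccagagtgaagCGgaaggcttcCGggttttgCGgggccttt
ZNF486 promoter, chr19:20166964-20167213, plus strand, 7 CpG: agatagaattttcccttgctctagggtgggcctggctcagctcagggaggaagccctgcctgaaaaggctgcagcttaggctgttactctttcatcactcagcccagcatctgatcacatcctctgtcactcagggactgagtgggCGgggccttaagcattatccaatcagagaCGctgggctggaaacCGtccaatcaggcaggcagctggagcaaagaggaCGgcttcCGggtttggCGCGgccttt
All 4 had fewer CpG sites than the median of 18 over the 14237 promoters matched to tested genes. The ZNF737 and ZNF486 promoters were 86.8% identical over 250 aligned positions. Signal that probe sets of such related genes might share was not tested, and no methylation was measured in this series.

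Of the L428-high genes with the largest falls below L428+M, some ended near the Burkitt level and others stayed well above it. CYP19A1, the aromatase that makes oestrogens, was at 5.61, 5.51 and 6.40 in L428-PAX5+MAT, against 5.01, 5.50 and 5.11 in Raji and 4.92, 4.70 and 5.17 in Namalwa, with 11.07 in L428+M. It was still higher by 0.77 (adjusted p = 0.00403, limma), or by 0.49 (adjusted p = 0.0531) without L428-PAX5+MAT replicate 3. ANXA1, a regulator of inflammation, was 4.89 below L428+M and 2.05 above the Burkitt mean. ENTREP1 was 4.75 below L428+M and stood 0.51 above the Burkitt mean. CYP19A1, ANXA1 and ENTREP1 were also low in L428-PAX5+M, at 6.23, 6.62 and 5.47, and high in L428+MAT, at 11.41, 11.78 and 10.56. CYP4Z1, a cytochrome, kept a level 1.85 above the Burkitt mean after a difference of -5.61 from L428+M.

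Other genes were farther from the Burkitt lines in L428-PAX5+MAT than in L428+M. Among 10535 genes that differed from neither line nor their mean in L428+M, 542 were at least 2-fold above the Burkitt mean in L428-PAX5+MAT and passed above both lines and above L428+M, UTS2B among them. Another 364 were at least 2-fold below the mean and passed below both lines and L428+M. EVI2B and PTPRC, which were among the lowest differences, were not in these sets, since both were already lower in L428+M, by 0.42 (adjusted p = 0.0433, limma) and 2.94 on the log2 scale. EVI2B, a membrane protein of blood cells, was at 5.04, 4.89 and 4.70 in L428-PAX5+MAT, against 11.27, 11.41 and 11.56 in Raji and 10.74, 10.96 and 11.18 in Namalwa. EVI2B averaged 5.04 in L428-PAX5+M but 10.63 in L428+MAT and 10.77 in L428+M. PTPRC, which encodes the leukocyte antigen CD45, was at 4.26, 4.10 and 4.53 in L428-PAX5+MAT, against 10.44, 10.38 and 10.37 in Raji and 10.15, 10.32 and 10.37 in Namalwa. PTPRC averaged 4.22 in L428-PAX5+M, 7.03 in L428+MAT and 7.40 in L428+M, so both PAX5 groups were low and both parental groups lay between them and the Burkitt lines.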

How the data were processed

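RNA of 18 samples in 6 groups of 3 was measured on Affymetrix whole-transcript arrays. The deposited values are log2 intensities, and RMA and Partek are named per the submitters' processing notes. Their versions, order and the array's genome build are not given in the sources used here. Of 33297 probe sets, 19460 had 1 gene symbol in GEO's platform annotation, 1754 had several and 12083 were not listed. The brightest probe set on average stood for each of 18417 genes, of which 769 had more than 1.

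limma 3.58.1 in R 4.3.3 fitted 1 mean per group over all 18 arrays without trend, with 12 residual and 6.1 prior degrees of freedom and two-sided tests adjusted by Benjamini-Hochberg. Arrays of 18417 genes were simulated for the L428-PAX5+MAT against Burkitt mean contrast. Of 50 genes changed by 1 (log2), 47 were recovered, and of 50 changed by 0.5, 19. Far fewer genes were changed there than the 9123 that passed on the real arrays, and noise was independent between arrays. The recovery therefore does not give the sensitivity of the real comparison. The number of arrays, 3 per group, limits the precision. The comparison, the 30 gene lists and the named genes were chosen with earlier results of these data known. Named genes were PAX5, the 10 highest and 10 lowest differences among genes passing against both lines without overlap, up to 2 members per direction of each list, 24 fixed genes of which 21 were measured, 6 rises and 6 falls against L428+M, and 6 genes between the lines. Members of counts of 5 or fewer were named after their values were seen. Same-numbered samples of L428-PAX5+MAT and the other L428 groups deviated together from their group means in 9 of 9 pairs (r from 0.273 to 0.457), which pairs them by a criterion of 0.1. Settings tried were array scaling, a dim-gene filter, probe set averaging, variance models, array weights, a replicate block, left-out arrays and each line alone.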

Additional observations from a re-analysis of the deposited data

Results flagged for a closer look

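The effect of L428-PAX5+MAT differed in sign between the 2 Burkitt lines for 8 named genes, each of which passed above one line and below the other. The test of that difference is Raji minus Namalwa, since the L428-PAX5+MAT mean cancels. It was -5.87 for CD24, a surface glycoprotein of B cells, -2.78 for ZEB2, a zinc finger repressor, 5.76 for AK4, -4.86 for SCML2, -6.40 for LEF1, -4.73 for NRN1, -5.36 for MGST1 and -5.32 for RRAGD. The last 6 were named by a rule that asked for opposite directions, so their split is a description. For CD24 and ZEB2, L428-PAX5+MAT was above Raji and below Namalwa.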

How the results depend on the processing

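Over all genes, the higher and lower counts kept their size within 1.5 times under scaling, filtering, probe set averaging, a robust trend and the omission of any single array, except for the values given here. Array weights gave 13574 passing genes, 7572 of them lower, and 6997 lower than Raji. With array weights 9597 genes were above or below both lines (5139 below), 747 passed in opposite directions (482 above Raji, 265 above Namalwa), 9532 passed against L428-PAX5+M (4392 higher), and 11176 against L428+MAT (5732 higher, 5444 lower). The cause was not tested. Leaving out the arrays of 1 replicate number in every group, an alternative chosen after seeing the data, left 2 arrays per group. Genes below both lines then numbered 2112 to 3413, and genes in opposite directions 177 to 343 (138 to 246 above Raji, 39 to 97 above Namalwa). Against L428+M the range was 4102 to 7693 (1970 to 3688 higher, 2132 to 4005 lower), against L428-PAX5+M 2999 to 7315 (1254 to 3156 higher, 1745 to 4159 lower), and against L428+MAT 3283 to 6920 (1399 to 3217 higher, 1884 to 3703 lower).

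For L428-PAX5+MAT against the Burkitt lines, replicate numbers did not meet the criterion for pairing: 8 of 9 same-numbered pairs correlated above 0.1 in their deviations from group means, and the lowest was 0.099. A replicate block gave 10463 passing genes instead of 9123. Within the L428 groups the numbers met it. The block there gave 8441 genes instead of 6899 against L428+M, 7739 instead of 6204 against L428-PAX5+M and 7346 instead of 5898 against L428+MAT. Against L428+M it added calls for 14 named genes, none of them printed as a difference from L428+M, and removed none. Subtracting array medians shifted the median of all genes by -0.1 and made 38.1% of passing genes higher instead of 46.6%. With dim genes left out, 11038 genes were tested. Directions of named genes turned in 10 cases: PLCG2 was at -0.80 with probe sets averaged. Against Raji alone MYBL1 was at -0.03, ZEB2 at 0.77, LEF1 at 2.22 and MGST1 at 2.18. Against Namalwa alone CD24 was at -0.73, AK4 at 2.61, SCML2 at -2.41, NRN1 at -2.19 and RRAGD at -2.15. These turns follow from the split between the lines, except for PLCG2, whose probe sets disagreed. Of 4645 recomputed values of named genes, 4507 kept direction and call. Against Raji alone, lower members numbered 3 instead of 6 in the list repressed by PAX5 and 9 instead of 14 in the methylation and deacetylation list. Dim signal limits the size of differences among low genes.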

Other observations

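By chromosome, 43.5% of the 317 genes tested on chromosome 13 were lower in L428-PAX5+MAT than in the Burkitt mean and 13.2% were higher. On chromosome 8, 18.5% of 638 genes were lower and 33.2% higher, and on chromosome 6, 20.1% of 977 were lower and 31.1% higher. The background over all genes was 26.5% lower and 23.1% higher. The median difference was -0.24 on chromosome 13 and 0.06 on chromosome 8, and in L428+M against the same Burkitt mean it was -0.23 and 0.06. Copy number was not measured.

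The CpG content of the promoters differed between gene sets. Among the 14237 matched promoters the median was 18 CpG in 250 bases, and 21.7% held at most 5. In genes near the Burkitt level in L428+M and at least 2-fold below the Burkitt mean, with passing differences from both lines and L428+M, in L428-PAX5+MAT, the median was 22 over 322 promoters, and 6.21% held at most 5. In the matching set above, the median was 16 over 387 promoters, and 24.5% held at most 5, near the share of all promoters. Among all genes at least 2-fold above both lines, the median was 18 over 1092 promoters, and 19.0% held at most 5. Among all genes at least 2-fold below both lines, the median was 21 over 1110 promoters, and 13.7% held at most 5. The level of the genes also differs between these sets, and its part in the shares was not tested.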
